A study of Mus musculus with 8 samples.

Results

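The genes described here encode the subunits of V0, the membrane sector of the vacuolar proton pump (V-ATPase). They are Atp6v0a1, Atp6v0a2, Tcirg1 (the a3 subunit), Atp6v0b, Atp6v0c, Atp6v0d1, Atp6v0d2, Atp6v0e and Atp6v0e2, 9 of the 22509 genes tested. The family was chosen by subunit name with the differences between LPS and saline already known, among them that of Atp6v0d2, so those differences are given as a description, with no test of their own. Members were found as non-control probes that carry one of these gene names on the array. All 9 genes had at least 1 probe that passed the filter on dim signals, and all 19 of their probes passed it.

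CD11b+ cells were taken with magnetic beads from brains of C57BL/6N mice, all male and labelled as 7 days old. The saline group had received saline and the LPS group lipopolysaccharide, the endotoxin of Gram-negative bacteria, in both cases 24 h earlier per the labels. Both groups shared strain, sex, age and sort, and no genetic change is labelled in either. The dose and route are not given in the sources used here. A tube pooled 2 brains of equally treated mice, each group had 4 tubes, and every tube gave 1 Agilent array with 1 colour, so the spread is one between pools. CD11b, encoded by Itgam, is carried by microglia, by macrophages of the brain's borders and by neutrophils and monocytes of the blood, so the sort does not hold microglia alone. In RNA from sorted pools, fewer cells of a type and less RNA per cell cannot be told apart.

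The V-ATPase burns ATP in its cytosolic sector V1 to turn a ring in its membrane sector V0, and the turning ring carries protons into lysosomes, endosomes, phagosomes or, at the surface of some cells, out of the cell. In V0 the products of Atp6v0c and Atp6v0b form the ring that holds the protons. An a subunit provides the channels in and out and helps to set which membrane the pump sits in. A d subunit couples the ring to the stalk of V1, and the small e subunit is a hydrophobic protein of the membrane sector. The a, d and e subunits come in isoforms. Atp6v0d1 is broadly expressed, while Atp6v0d2 is known from osteoclasts, where it takes part in cell fusion, from kidney and from macrophages. In microglia the pump acidifies lysosomes and phagosomes.

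Levels below are log2 processed signal minus the array's 75th percentile, so that 0 is a signal at the 75th percentile. A difference is the LPS mean minus the saline mean on that log2 scale, given ± standard error with n = 4 arrays per group. "Past the threshold" means an adjusted p under 0.05 in limma's fit of all 22509 genes. A probe's level also depends on its own sequence, so levels are compared between arrays for a probe and not between genes. Other settings named below are scaling to array medians, the detected-probe percentile (the 75th percentile over probes detected on all arrays), quantile normalization, normexp background correction with an offset of 50, the mean of a gene's probes, array weights and array brightness (the median signal) as a covariate.

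The sequences of the d subunit probes are shown because the report turns on the isoform pair and the probes must tell the isoforms apart. Both Atp6v0d2 probes lie on the minus strand of chromosome 4 in mm9, the build of the array design, and are printed 5′ to 3′.
A_66_P124179, Atp6v0d2, chr4:19805367-19805426: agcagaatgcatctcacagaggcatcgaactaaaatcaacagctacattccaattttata
A_55_P2595514, Atp6v0d2, chr4:19837769-19837828: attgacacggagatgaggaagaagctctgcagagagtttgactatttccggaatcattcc
The last 34 bases of the first of these line up, with no gap, with the first 34 bases of the single Atp6v0d1 probe, A_51_P361201, on the minus strand of chromosome 8. Capitals mark the bases that the isoforms share.
Atp6v0d1, chr8:108048804-108048837: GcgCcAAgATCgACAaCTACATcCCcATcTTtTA
Atp6v0d2, chr4:19805367-19805400: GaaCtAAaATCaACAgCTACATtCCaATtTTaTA
Of these 34 bases 24 were identical (70.6%). Cross-hybridisation between the isoforms was not tested.

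Atp6v0d2 had the largest difference of the family. Probe A_66_P124179 read 1.82, 0.86, -0.04 and 1.34 on saline arrays 1 to 4, and -2.25, -1.72, -0.50 and -2.29 on LPS arrays 1 to 4. Every LPS array lay below every saline array, with a gap of 0.46 between LPS 3 and saline 3. The difference was -2.69 ± 0.50, a level 6.43-fold lower after LPS, past the threshold. The probe was well above background on all 8 arrays.

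The other Atp6v0d2 probe, A_55_P2595514, was dimmer and moved the same way. It read -1.67, -2.39, -3.13 and -2.005 on the saline arrays and -6.01, -6.00, -4.43 and -6.81 on the LPS arrays. These groups did not overlap, and the difference was -3.51 ± 0.50. It was well above background on 4 of 4 saline arrays but on 1 of 4 LPS arrays, so its LPS values lie mostly at the limit of what the array measures.

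The other d subunit, Atp6v0d1, read 3.84, 3.72, 3.57 and 3.71 on the saline arrays and 4.02, 3.84, 3.59 and 3.89 on the LPS arrays. The groups overlapped and the difference, 0.12 ± 0.11, did not pass the threshold. Its sign turned with quantile normalization (-0.13), the detected-probe percentile (-0.031) and the brightness covariate (-0.088). Taking Atp6v0d2 minus Atp6v0d1 within each array, where the scaling of the array cancels, gave -2.72 ± 0.69 (SD, n = 4) in saline and -5.53 ± 1.01 (SD, n = 4) in LPS. That quantity was -2.03, -2.86, -3.61 and -2.37 on the saline arrays and -6.27, -5.56, -4.09 and -6.18 on the LPS arrays, again without overlap. The d isoforms therefore differed in how far they moved, by 2.81 on the log2 scale between the groups, with Atp6v0d2 the one that was lower.

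**Figure D1:**
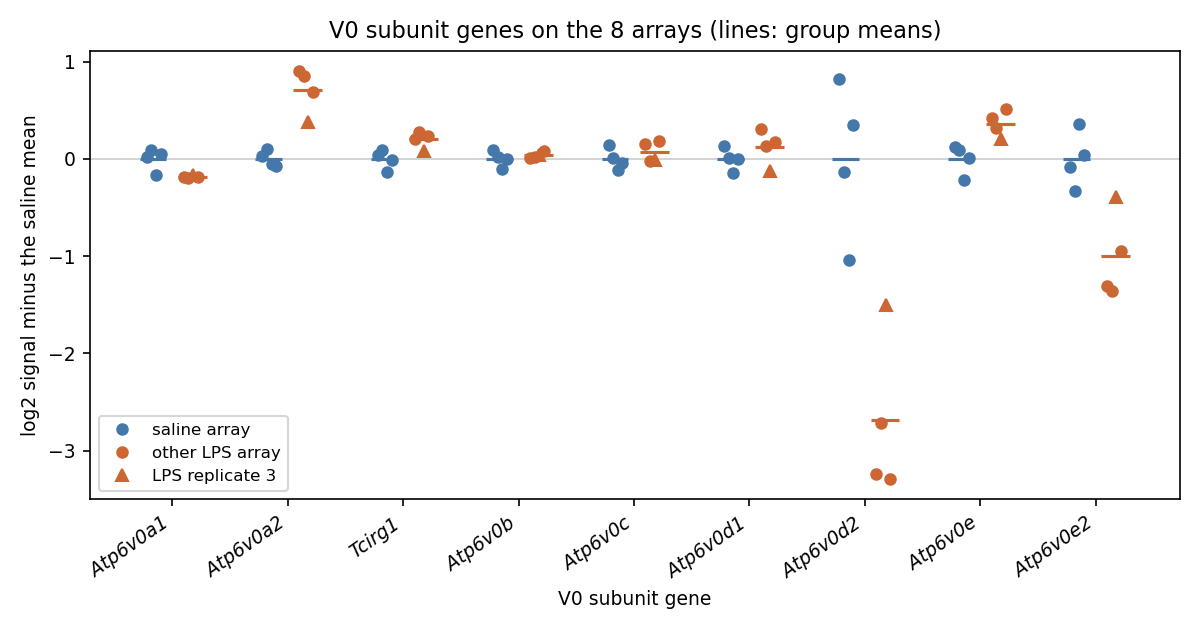
Level of each of the 9 V0 subunit genes on the 8 arrays, 1 point per array, saline and LPS side by side. Points are log2 signal minus the gene's own mean over the saline arrays. Atp6v0d2 runs from -3.29 to -1.50 on the LPS arrays, while the points of Atp6v0b, Atp6v0c and Atp6v0d1 overlap between the groups.

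LPS 3 was the LPS array nearest to the saline mean for Atp6v0d2, with a change of -1.50 from that mean against -3.24, -2.71 and -3.29 on LPS 1, 2 and 4. It was also the nearest for all 4 members past the threshold, as it was in 8722 of the 11104 genes past the threshold in either direction (78.5%). Without LPS 3 the Atp6v0d2 difference was -3.08. The LPS arrays were dimmer on average, but LPS 3, with a median signal of 17.3, lay inside the saline range of 15.5 to 21.5. The other LPS arrays were at 11.7 to 13.8. With brightness as a covariate the Atp6v0d2 difference was -2.52. In both cases it remained past the threshold.

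Among the a subunits, Atp6v0a2, the isoform known from the Golgi and early endosomes, was higher after LPS. Its brightest probe, A_55_P2496884 (mm9 chr5:125204765-125204824, plus strand), read 3.86, 3.93, 3.77 and 3.75 on the saline arrays and 4.73, 4.68, 4.21 and 4.52 on the LPS arrays. All LPS arrays lay above all saline arrays, and the difference was 0.71 ± 0.12, a 1.63-fold higher level, past the threshold. The gene's other probes went the same way, A_52_P163766 by 0.76 ± 0.13 and A_65_P19953 by 0.38 ± 0.10, neither with overlap.

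Tcirg1 encodes a3, the a subunit of lysosomes in macrophages and of the ruffled border of osteoclasts. It read 6.41, 6.46, 6.23 and 6.35 on the saline arrays and 6.57, 6.64, 6.45 and 6.60 on the LPS arrays. The lowest LPS array, LPS 3, lay just inside the saline range, and the difference of 0.20 ± 0.08 did not pass the threshold. Its other probe differed by 0.15 ± 0.07 and also overlapped. The Tcirg1 difference did pass with slide column as a block (0.20), with normexp (0.17), with array weights (0.24) and without LPS 3 (0.24). It shrank with the detected-probe percentile (0.047) and the brightness covariate (0.080), was 0.42 with median scaling, and its sign turned with quantile normalization (-0.16).

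Atp6v0a1, the a isoform best known from the synaptic vesicles of neurons, was lower in LPS, on its brightest probe by less than the test could call. Its brightest probe, A_55_P2062418, read 5.62, 5.69, 5.44 and 5.65 on the saline arrays and 5.41, 5.41, 5.43 and 5.41 on the LPS arrays. The LPS arrays lay within an SD of 0.011 of each other and below saline 3 by a gap of only 0.0055. The difference was -0.18 ± 0.07. All 4 Atp6v0a1 probes were lower in LPS, by -0.07 to -0.59, and 3 of them without overlap. In a limma fit of all kept probes, A_52_P515336 (-0.59 ± 0.13) and A_55_P2177578 (-0.34 ± 0.10) had an adjusted p under 0.05. The brightest probe and A_52_P399998 did not. The direction of the gene's difference depended on the scaling. Scaled to each array's median, the difference was 0.03. It was past the threshold under 7 of 22 other settings, namely quantile normalization (-0.53), the detected-probe percentile (-0.34), the mean of the probes (-0.30), the brightness covariate (-0.25), normexp (-0.22), array weights (-0.21) and without saline 3 (-0.24).

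Ratios within an array set the a isoforms against each other without the scaling. Atp6v0a1 minus Tcirg1 was -0.76 ± 0.04 (SD, n = 4) in saline and -1.15 ± 0.09 (SD, n = 4) in LPS. Atp6v0a2 minus Tcirg1 was -2.53 ± 0.06 (SD, n = 4) in saline and -2.03 ± 0.17 (SD, n = 4) in LPS. Neither pair of groups overlapped, so relative to a3 the a2 probe was higher and the a1 probe lower after LPS. Tcirg1 minus Atp6v0d1, by contrast, was 2.65 ± 0.07 (SD, n = 4) and 2.73 ± 0.13 (SD, n = 4), with overlap.

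The kidney isoform Atp6v0a4, which is no member here, was at the limit of measurement, well above background on 3 saline and 2 LPS arrays. Its difference of -1.13 ± 1.46 did not pass the threshold (limma, adjusted p = 0.535).

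The proteolipids of the ring differed little. Atp6v0c, the main ring subunit, read 6.06, 5.92, 5.80 and 5.87 on the saline arrays and 6.06, 5.89, 5.90 and 6.10 on the LPS arrays, a difference of 0.08 ± 0.09. Atp6v0b, the other ring subunit, read 4.53, 4.46, 4.34 and 4.44 on the saline arrays and 4.45, 4.46, 4.48 and 4.52 on the LPS arrays, a difference of 0.04 ± 0.07. The groups overlapped for both genes and neither passed the threshold, which does not show that they were equal. Quantile normalization turned both signs, to -0.29 for Atp6v0c and -0.26 for Atp6v0b, and both then passed the threshold. The ratio of the 2 ring genes within an array hardly moved, with Atp6v0b minus Atp6v0c at -1.47 ± 0.04 (SD, n = 4) in saline and -1.51 ± 0.10 (SD, n = 4) in LPS.

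The e subunits moved apart when Atp6v0e was read by its brighter probe. Atp6v0e2, the isoform known mainly from brain, was lower after LPS. It read 0.48, 0.23, 0.91 and 0.60 on the saline arrays and -0.75, -0.80, 0.16 and -0.39 on the LPS arrays. The groups did not overlap, with LPS 3 the highest LPS array and 0.07 below the lowest saline array, and the difference was -1.002 ± 0.23, a 2.003-fold lower level, past the threshold. With array brightness as a covariate the difference was -0.46, less than the main value by more than 1.5 times but still past the threshold.

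Atp6v0e, the broadly expressed isoform, gave opposite answers on its 2 probes. The brighter probe, A_51_P336874 (mm9 chr17:26836332-26836391, plus strand), read 5.41, 5.38, 5.06 and 5.29 on the saline arrays and 5.71, 5.60, 5.49 and 5.80 on the LPS arrays. The LPS arrays were all higher, and the difference was 0.36 ± 0.11, past the threshold. The dimmer probe, A_52_P178358, lies upstream of it on the same strand (mm9 chr17:26834822-26834881) and is annotated on the array to an Ensembl transcript in place of the RefSeq transcript of the first. It read -0.49, -0.44, -0.11 and -0.28 on the saline arrays and -0.70, -0.60, -0.60 and -0.52 on the LPS arrays, all lower, with a difference of -0.28 ± 0.10. In a limma fit of all kept probes, both Atp6v0e probes had an adjusted p under 0.05, in opposite directions. The mean of both probes gave 0.04, which did not pass. The call of the bright probe also ended without saline 4 (0.36), without LPS 1 (0.34) and without LPS 4 (0.31), with quantile normalization (0.01), with the detected-probe percentile (0.21) and with the brightness covariate (0.18).

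Within an array, Atp6v0e2 minus the bright Atp6v0e probe was -4.73 ± 0.43 (SD, n = 4) in saline and -6.09 ± 0.53 (SD, n = 4) in LPS. The groups did not overlap, and the difference was -1.37.

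**Figure D2:**
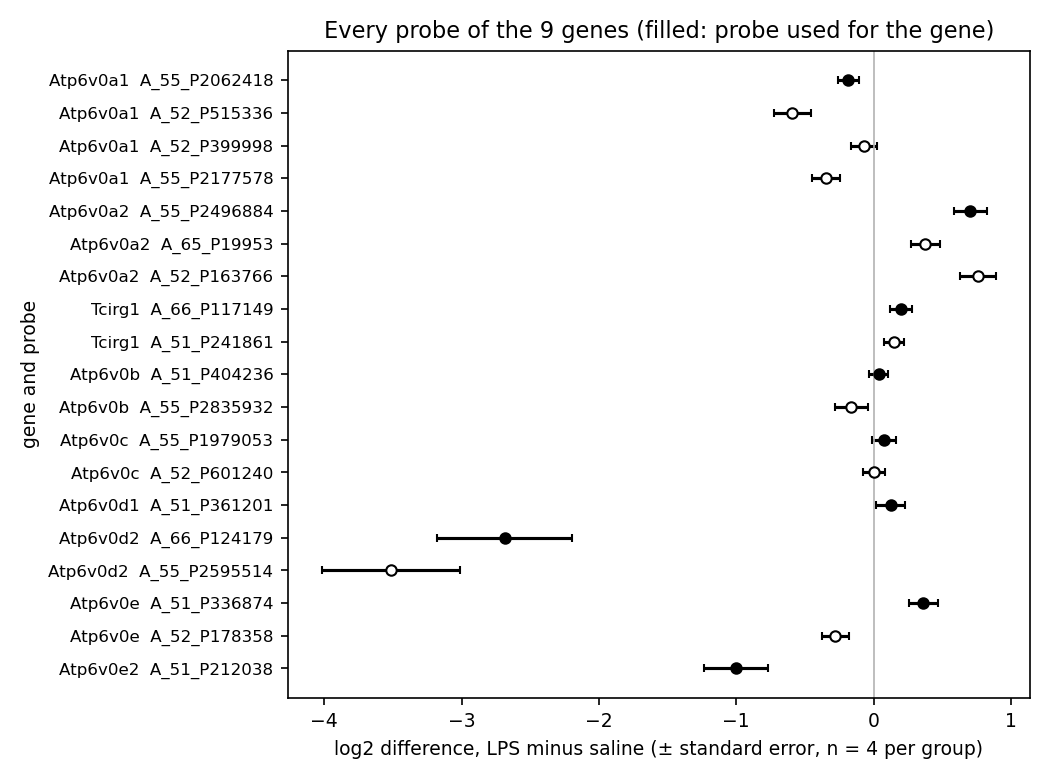
Difference LPS minus saline (log2) ± standard error for each of the 19 probes of the 9 genes, n = 4 arrays per group. Both Atp6v0d2 probes lie far to the left at -2.69 and -3.51, all 3 Atp6v0a2 probes lie to the right of 0, and the 2 Atp6v0e probes lie on opposite sides at 0.36 and -0.28.

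Counted over the family, 4 of 9 genes were past the threshold, Atp6v0a2 and Atp6v0e higher and Atp6v0d2 and Atp6v0e2 lower, and 5 were not. Of all 22509 genes, 49.3% were past the threshold, 27.8% higher and 21.5% lower. In 5 of 9 members the groups did not overlap, against 44.7% of all genes. The members were chosen with these values known, so nothing is read from the counts, which were near those of all genes. The median difference was 0.076 over the members and 0.022 over all genes.

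**Figure D3:**
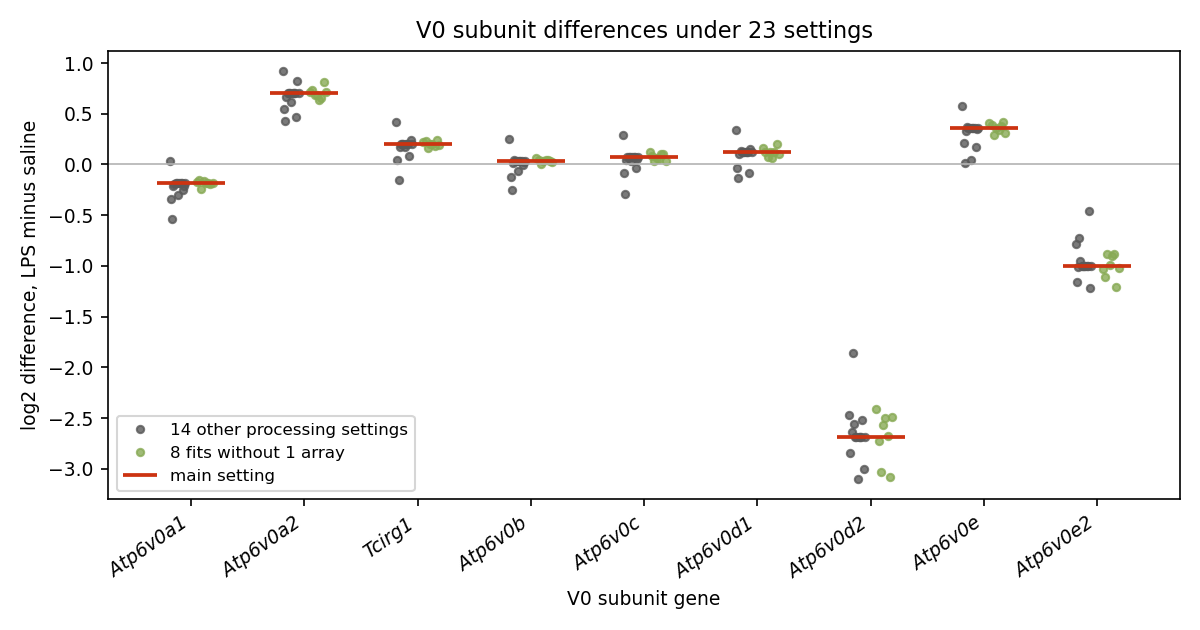
Difference LPS minus saline (log2) of each member under the main processing, 14 other processing settings and 8 fits that leave out 1 array each. Atp6v0d2 stays between -3.10 and -1.86, Atp6v0e2 between -1.22 and -0.46 and Atp6v0a2 between 0.43 and 0.92, while Atp6v0b, Atp6v0c and Atp6v0d1 lie on both sides of 0.

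The genes whose level followed Atp6v0d2 most closely over the 8 arrays were taken by Pearson r from 16149 genes that 3 or more arrays of each group measured well above background. They were Scml4 (r = 0.992), Zfp605 (0.990), Gpnmb (0.989), Aph1c (0.988) and Zfp644 (0.987). These r values describe 8 arrays that fall into the treatment groups, so the treatment itself contributes to them, and with the group means removed r was 0.969, 0.951, 0.965, 0.972 and 0.952. The genes were picked by r on these same arrays, so high values follow partly from the choice. Removing group means also leaves the spread among the LPS arrays, of which LPS 3 lay nearest to saline. Scml4, a Polycomb-group related gene, differed by -2.25 ± 0.36, and Gpnmb, a glycoprotein of phagocytes and osteoclasts, by -2.86 ± 0.41. Aph1c, a component of gamma-secretase, differed by -0.89 ± 0.13, while the zinc finger genes Zfp605 and Zfp644 differed by only -0.63 ± 0.12 and -0.19 ± 0.07. A close likeness in shape therefore came with very different sizes.

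**Figure D4:**
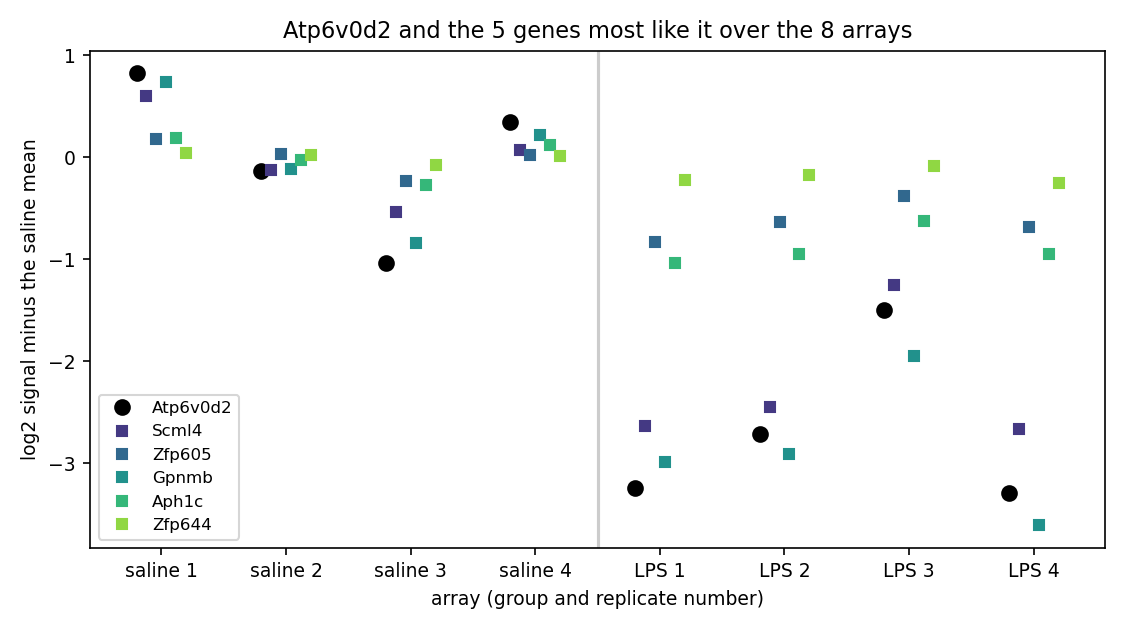
Level of Atp6v0d2 and of the 5 genes most like it on each array, as log2 signal minus the gene's own mean over the saline arrays. Atp6v0d2 and Gpnmb reach below -2.5 on LPS 1, 2 and 4 and lie higher on LPS 3, while Zfp644 stays within 0.3 of its saline mean throughout.

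For Atp6v0a2 the closest genes were Tmem176b (r = 0.998), Haus3, Setd3 and Incenp (0.997 each) and Dapp1 (0.996). Their differences ran from 0.40 ± 0.09 for Dapp1, an adaptor of B cell and myeloid signalling, to 0.77 ± 0.11 for Incenp, a subunit of the chromosomal passenger complex. With the group means removed, r was 0.981 to 0.993, again for genes picked by r on the same arrays. As with Atp6v0d2, LPS 3 sat between the saline arrays and the other LPS arrays, for example at 6.78 for Tmem176b against 7.12 to 7.36 on the other LPS arrays and 6.34 to 6.51 in saline.

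The V1 sector, which hydrolyses the ATP, was measured in 10 of 13 listed subunit genes. Beside the counts of this and the later lists, 49.3% of all 22509 genes were past the threshold, 27.8% higher and 21.5% lower. No test of the lists as sets was run. Atp6v1b2, the B subunit of the catalytic head found in most tissues, rose by 0.33 ± 0.10 (limma, adjusted p = 0.0269). Atp6v1g2, a stalk isoform of neurons, fell, with a difference of -0.47 ± 0.13 (adjusted p = 0.0196), and 8 did not pass. The list's median was 0.10. Atp6v1h, the subunit that regulates ATP hydrolysis, had LPS arrays above all saline arrays and a difference of 0.31 ± 0.13 (adjusted p = 0.084). Atp6v1a, the catalytic A subunit, differed by -0.12 ± 0.10 with overlap. The call of Atp6v1b2 ended without any one of saline 3 or 4 or LPS 1, 2 or 4 (0.28 to 0.33). It also ended with the detected-probe percentile (0.18), the mean of probes (0.17) and the brightness covariate (0.14), and the sign turned with quantile normalization (-0.03). That of Atp6v1g2 ended with normexp (-0.12), median scaling (-0.25), the mean of probes (-0.26), quantile normalization (-0.31) and array weights (-0.31), and without LPS 1 (-0.43) or LPS 4 (-0.44).

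Among 14 genes for accessory subunits and for assembly of the pump, 3 rose and 2 fell, against 27.8% and 21.5% of all genes. Ncoa7, a TLDc protein that binds the pump, rose by 0.71 ± 0.09 (adjusted p = 0.000905). Vma21, the chaperone that helps V0 assemble in the endoplasmic reticulum, rose by 0.70 ± 0.11 (adjusted p = 0.0018), from 1.44 to 1.75 on the saline arrays to 2.08 to 2.48 on the LPS arrays. Atp6ap2, the prorenin receptor and an accessory subunit of V0, rose by 0.29 ± 0.08 (adjusted p = 0.0218), a call that ended with quantile normalization (0.0059), the detected-probe percentile (0.13) and the brightness covariate (0.19), and without saline 3 (0.25), LPS 1 (0.28) or LPS 4 (0.24). The genes that fell were Dmxl1 (-0.75 ± 0.18, adjusted p = 0.0106) and Wdr7 (-0.29 ± 0.07, adjusted p = 0.00912), whose products belong to the rabconnectin complex that brings V1 and V0 together. Wdr7 did not pass with median scaling (-0.08) or the mean of probes (-0.20), and Dmxl1 did not with the brightness covariate (-0.41). The mean of probes gave 0.41 for Ncoa7, still past the threshold, and normexp -0.49 for Dmxl1. The list's median was 0.093.

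The Ragulator complex and the Rag GTPases sit on the lysosome, bind the V-ATPase and report amino acids to mTORC1. Of 12 measured genes 4 rose and 6 fell, against 27.8% and 21.5% of all genes. All 4 that rose encode Ragulator subunits, namely Lamtor4 (0.58 ± 0.13, adjusted p = 0.00861), Lamtor2 (0.57 ± 0.13, adjusted p = 0.00915), Lamtor5 (0.51 ± 0.12, adjusted p = 0.0113) and Lamtor1 (0.38 ± 0.13, adjusted p = 0.0404). The genes that fell included the GTPases Rragd (-1.67 ± 0.44, adjusted p = 0.0142) and Rragc (-0.53 ± 0.07, adjusted p = 0.00119). They also included Flcn (-0.70 ± 0.07, adjusted p = 0.000427) and its partner Fnip2 (-1.09 ± 0.12, adjusted p = 0.000716), which act on the nucleotide state of RagC and RagD.

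Flcn ranged from 4.24 to 4.36 on the saline arrays and from 3.54 to 3.68 on the LPS arrays. Rragd was uneven, at -1.70, -1.63 and -1.57 on LPS 1, 2 and 4 and at 0.33 on LPS 3, inside the saline range of 0.28 to 0.80. The call of Lamtor1 ended without any one of saline 2, 3 or 4 or LPS 1, 2 or 4 (0.33 to 0.40). It also ended with quantile normalization (0.068), the brightness covariate (0.11) and the detected-probe percentile (0.23), and, at 0.38, with slide row as a block and with no filter on dim probes. Lamtor2, Lamtor4 and Lamtor5 kept their calls, at 0.23 to 0.29 with quantile normalization or the brightness covariate. Scaled to each array's median, Rragc did not pass (-0.31), and with the brightness covariate Rragd did not (-0.96). Over the whole list, 4 genes were higher and 3 lower with median scaling, against 6 lower in the main values. With the brightness covariate 3 were higher and 4 lower. The list's median was -0.19.

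Of 17 genes for lysosomal membrane proteins and ion transport, 3 rose and 5 fell, against 27.8% and 21.5% of all genes. Mcoln2, a cation channel of endosomes, rose by 1.37 ± 0.16 (adjusted p = 0.000826), Tpcn2, a channel of the lysosome membrane, by 0.72 ± 0.15 (adjusted p = 0.00516), and Slc11a1 (NRAMP1), the metal transporter of the phagosome, by 0.47 ± 0.10 (adjusted p = 0.00696). Mcoln3, another member of the mucolipin family, fell (-2.79 ± 0.57, adjusted p = 0.00509) and was well above background on only 2 LPS arrays. The size of the Mcoln3 fall depended on these dim signals, at -0.67 with normexp and -1.61 with the mean of probes. Tpcn1 fell as well (-0.50 ± 0.12, adjusted p = 0.009), as did the exchangers Clcn6 (-0.32 ± 0.08, adjusted p = 0.0115) and Clcn3 (-0.29 ± 0.07, adjusted p = 0.0104). The number of calls depended on scaling, with 4 genes (3 higher, 1 lower) when arrays were scaled to their medians and 13 with quantile normalization (2 higher, 11 lower). Median scaling left Tpcn1 (-0.29), Clcn6 (-0.11) and Clcn3 (-0.072) without a call. Clcn6 also lost it with normexp (-0.085), the mean of probes (-0.15) and quantile normalization (-0.18), and Slc11a1 with quantile normalization (0.16). The brightness covariate did so for Tpcn2 (0.51), Slc11a1 (0.32) and Mcoln3 (-2.19). The list's median was -0.056.

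**Figure D5:**
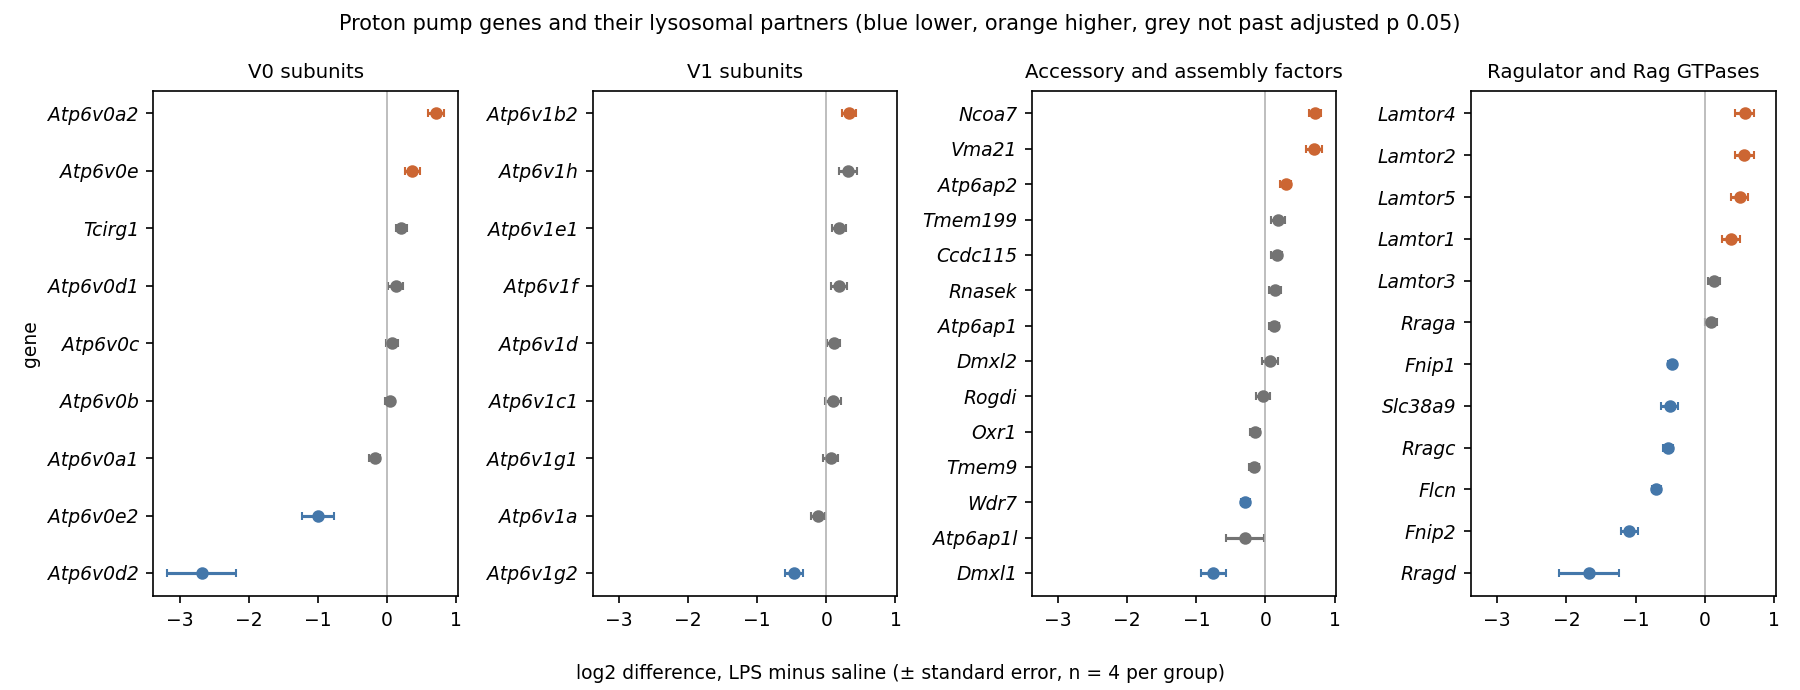
Difference LPS minus saline (log2) ± standard error, n = 4 arrays per group. Shown are the measured V0 members, V1 subunits, accessory and assembly factors, and Ragulator and Rag GTPase genes. Atp6v1c2 is left out because its standard error exceeds 1, and the other lists are not drawn. Most V1 genes lie close to 0, the Lamtor genes past the threshold lie to the right of 0 and Rragd, Fnip2 and Flcn to the left.

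The MiT/TFE transcription factors drive many lysosomal genes, V-ATPase subunits among them. Mitf, the family member known to act on Atp6v0d2 and Gpnmb in osteoclasts, fell by 0.67 on the log2 scale (standard error 0.09, adjusted p = 0.00114), from 2.92 to 3.27 on the saline arrays to 2.34 to 2.48 on the LPS arrays. Tfeb (-0.07 ± 0.08), Tfe3 (-0.13 ± 0.10) and Tfec (0.18 ± 0.11) did not pass the threshold.

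Osteoclasts, bone-resorbing cells of the myeloid lineage, use Atp6v0d2 together with other genes, and of 11 measured genes of that list 4 rose and 2 fell. Over all genes, 27.8% were higher and 21.5% lower. The osteoclast list went no single way. Acp5, tartrate-resistant acid phosphatase, rose by 1.78 ± 0.26 (adjusted p = 0.00154). The fusion genes Ocstamp (1.16 ± 0.13, adjusted p = 0.00065) and Dcstamp (1.01 ± 0.33, adjusted p = 0.0335) rose, as did Tnfrsf11a (RANK, 0.26 ± 0.09, adjusted p = 0.0343). Both fusion genes were dim, though well above background on every array. Their saline and LPS means were -3.43 and -2.27 for Ocstamp and -4.01 and -3.00 for Dcstamp, and the size of both rises depended on the background correction. Gpnmb fell (-2.86 ± 0.41, adjusted p = 0.00137), from 4.89, 4.04, 3.31 and 4.37 on the saline arrays to 1.17, 1.25, 2.21 and 0.55 on the LPS arrays, and so did the integrin Itgb3 (-0.80 ± 0.16, adjusted p = 0.00494). The list's median was 0.22. The call of Dcstamp ended without any one of saline 1, 2 or 3 or LPS 2 or 3 (0.76 to 1.02), and with array weights (0.72), the detected-probe percentile (0.86), the mean of probes (0.91) and no filter on dim probes (1.01). Normexp gave 0.30 for Dcstamp and 0.42 for Ocstamp, both past the threshold. That of Tnfrsf11a ended without any one of saline 1, 3 or 4 or LPS 1, 2 or 4 (0.21 to 0.28), with the detected-probe percentile (0.11), the brightness covariate (0.12) and no filter on dim probes (0.26), and its sign turned with quantile normalization (-0.03).

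Promoter sequence was set beside the members because MiT/TFE factors are known to bind E-boxes with the core CACGTG. RefSeq promoter windows of GRCm38.p6 run from 250 bases before to 50 bases after a transcript's start, and 7 of 9 members had an entry, in 11 windows. Not entered were Atp6v0a2 and Atp6v0d2. CACGTG, which reads the same on both strands, stood in the windows of 3 of these 7 genes, Atp6v0b, Atp6v0d1 and Atp6v0e. Over all genes with an entry it stood in 2187 of 27025 (8.09%), and in 2349 of 32851 windows (7.15%). The stretches with a match are printed 5′ to 3′ on the gene's strand, the motif in capitals.
Atp6v0b, chr4:117887325-117887429, minus strand: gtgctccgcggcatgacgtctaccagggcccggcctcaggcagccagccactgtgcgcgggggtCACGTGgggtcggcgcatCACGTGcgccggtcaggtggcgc
Atp6v0d1, chr8:105566060-105566164, minus strand: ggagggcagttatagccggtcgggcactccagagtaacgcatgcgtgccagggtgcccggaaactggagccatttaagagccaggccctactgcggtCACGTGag
Atp6v0e, chr17:26676306-26676410, plus strand: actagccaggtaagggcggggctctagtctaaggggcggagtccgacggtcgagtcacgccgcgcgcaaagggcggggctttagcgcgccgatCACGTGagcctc
The copies in Atp6v0b began 36 and 18 bases before the start, and that of Atp6v0d1 began 3 bases before it. A match is a description of letters, and no binding was measured here. Of the genes with the motif, Atp6v0b (0.04) and Atp6v0d1 (0.12) overlapped between the groups and Atp6v0e was the gene with probes of opposite sign.

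Several measures of the samples moved together with these differences, and their part in them was not tested. Beside the counts of markers given here, 27.8% of all genes rose and 21.5% fell. Itgam, the target of the sort, was itself higher in LPS (0.66 ± 0.10, adjusted p = 0.00176). The summed level of the 10 microglial markers was 10.6 to 10.8 in saline and 10.6 to 10.9 in LPS (log2 of the summed signal over the 75th percentile), and 2 of them rose and 4 fell. Border macrophage markers summed to 9.33 to 9.69 in saline and 8.75 to 9.18 in LPS (0 of 8 rose, 4 fell). Monocyte markers summed to 3.60 to 4.00 and 5.42 to 6.26 (4 of 5 rose), and neutrophil markers to 6.17 to 7.40 and 7.40 to 8.23 (2 of 10 rose, none fell). The neutrophil markers that rose were S100a8 (1.59 ± 0.29) and S100a9 (1.38 ± 0.29). They had the highest signals of that list and so weigh most in its sum. The median difference of the neutrophil list was -0.053.

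Markers of cells outside the myeloid lineage were measured too, and their counts stand beside the same 27.8% and 21.5% of all genes. Astrocyte markers summed to 4.71 to 5.04 in saline and 3.91 to 4.33 in LPS (7 of 8 fell), oligodendrocyte lineage markers to 3.39 to 3.47 and 2.94 to 3.11 (6 of 9 fell), endothelial and pericyte markers to 4.30 to 4.83 and 3.75 to 4.18 (6 of 8 fell), and neuronal markers to 3.85 to 4.27 and 3.37 to 4.05 (1 of 9 rose, 2 fell). Slc17a7, a defining marker of excitatory neurons, was not well above background on any array, while the 9 other neuronal markers were so on every array. The means of these sums were lower in LPS, as was Atp6v0e2, the e isoform known mainly from brain. The share of probes well above background was 61.9% to 66.0% on the saline and 58.6% to 63.2% on the LPS arrays, and the median processed signal was 15.5 to 21.5 and 11.7 to 17.3. LPS 3 had the lowest median correlation with its own group (0.985, against 0.990 to 0.995 for the other arrays).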

How the data were processed

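Each of 8 tubes (4 saline, 4 LPS) gave 50 ng of RNA for Cy3 labelling, per the labels' protocols. The scans were read with Agilent Feature Extraction 12.0.3.1, per the submitters' processing notes. The deposited scanner files hold intensity values, the processed signal being background-subtracted by spatial detrending and not scaled between arrays, per the file headers. The value table deposited by the authors is on a log2 scale. Set against the scanner values it correlated at 0.9992 to 0.9996 per array, with column medians of -0.07 to 0.08, so its scale and direction match and it is centred per probe. The sources used here do not say why it was centred.

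Control and outlier spots were left out, and spots of a probe were averaged. Of 56605 probes, 6 had no usable spot on some array, and 35494 passed the dim-signal filter (well above background on 4 or more of 8 arrays). For the main values the 75th percentile of an array's log2 processed signals was subtracted, which differs from the authors' centring only per probe. Each gene took the values of its brightest kept probe. Probe names were updated through RefSeq of GRCm38.p6 (35405 by accession, 9124 by symbol, 25 by synonym, 12051 kept as in the file). LPS and saline were set against each other in limma 3.58.1 (lmFit, eBayes; R 4.3.3), with p-values Benjamini-Hochberg adjusted over 22509 genes, and the fit was tested on simulated data. Figures used matplotlib 3.10.9 in Python 3.11.15.

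The members and lists were chosen with earlier results of these data known. Genes named are the 9 members with every probe, Atp6v0a4, Itgam, up to 4 called genes per direction from each list (otherwise the 2 brightest), and the 5 genes most like the member with the largest fall and the member with the largest rise. Beyond that rule, Atp6v1a, Atp6v1h, Tfeb, Tfe3, Tfec and Slc17a7 were named after their values were seen. Alternatives covered scaling, background correction, the dim-probe filter, the choice of probe, slide position, array brightness, array weights, the deposited value table and the omission of each array in turn. The number of arrays limits the precision.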

Additional observations from a re-analysis of the deposited data

Results flagged for a closer look

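Among 80 groups of 4 arrays (the named genes in saline and in LPS), 9 had an array set apart from the other 3 by most of the group's range. Chance alone sets about 1 in 20 groups apart. None of the 9 V0 subunit genes was among them.

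LPS 3 accounted for 3. Rragd read 0.33 there against -1.70 to -1.57 on the other LPS arrays, Fnip2 1.15 against 0.85 to 0.90, and Tpcn2 -0.72 against -0.18 to -0.09. In all 3 genes LPS 3 lay on the saline side of its group. Saline 3 was the lowest saline array for Atp6ap2 (3.88 against 4.04 to 4.06) and Wdr7 (2.38 against 2.52 to 2.55). Saline 2 was apart for Atp6v0a4, at -6.02 against -2.81 to -2.21, a probe near background, and for Atp6v1g2, at -1.84 against -2.23 to -2.16. LPS 2 was apart for Atp6v1g2 in the same direction, at -2.25 (others -2.69 to -2.64). LPS 4 was apart for Itgb3, at 1.63 against 2.28 to 2.30.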

How the results depend on the processing

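No analysis paired by replicate number was possible because the labels give none, so that nothing in the labels ties a saline tube to an LPS tube. The slide position did allow a blocked fit, with 1 saline and 1 LPS array in a column. With slide column as a block 13620 genes were called and 5 members, Tcirg1 in addition to the 4 of the main values. The differences of Atp6v0a2, Atp6v0d2 and Atp6v0e2 kept their direction and their side of the threshold under all 22 other settings, while Atp6v0e kept its direction but lost its call under 7. The number of members called was 3 to 5 when an array was left out and 3 to 6 over all settings. Calls among all genes leaned higher or lower with the scaling. Of those called, 56.4% were higher in the main values, 72.8% when scaled to array medians (the median of all genes then moved by 0.21) and 40.1% with the percentile over probes detected on all arrays (moved by -0.15). Signs turned as follows. With median scaling, Atp6v0a1 was 0.032. With the percentile over probes detected on all arrays, Atp6v0b was -0.12, Atp6v0c -0.079 and Atp6v0d1 -0.031. With quantile normalization, Tcirg1 was -0.16, Atp6v0b -0.26, Atp6v0c -0.29, Atp6v0d1 -0.13, Atp6v1b2 -0.026 and Tnfrsf11a -0.029. With normexp and offset 50, Atp6v0a4 was 0.11, and with the mean of a gene's probes Atp6v0b was -0.062. With the brightness covariate (each array's median signal), Atp6v0b was -0.0073, Atp6v0c -0.035, Atp6v0d1 -0.088 and Atp6v0a4 1.90. The count for V1 subunits, 2 in the main values (1 higher, 1 lower), changed in direction too. It was 4 with quantile normalization (0 higher, 4 lower) and 4 with array weights (4 higher, 0 lower). It stayed 2 with median scaling (2 higher, 0 lower), the detected-probe percentile (0 higher, 2 lower) and the brightness covariate (0 higher, 2 lower). It was 1 with normexp and offset 50 (higher), 1 with the mean of probes (lower) and 0 to 2 when an array was left out. The count for accessory and assembly factors, 5, was 9 with array weights. That for Ragulator and Rag GTPase genes, 10 (4 higher, 6 lower), was 7 with median scaling (4 higher, 3 lower). With the brightness covariate it was 7 as well (3 higher, 4 lower). That for lysosomal membrane genes, 8, was 4 with median scaling, 13 with the percentile over probes detected on all arrays and 13 with quantile normalization. The cause of these shifts was not tested. Of 31 named genes outside the 9 members, 14 kept their direction and side of the threshold under every setting, 3 reversed under 1 or more and 16 lost or gained a call under 1 or more.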
